A study of Rattus norvegicus with 65 samples.

Results

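The endoplasmic reticulum (ER) stress response was followed through 10 genes in rat mammary tumors that were passaged from host to host: Xbp1, Atf4, Ddit3, Hspa5, Hsp90b1, Calr, Pdia4, Dnajb9, Sel1l and Herpud1. They were taken as a named list, chosen with earlier results of these data known, and every probe set annotated to them was used. The p-values below do not allow for that choice. Each of the 10 had 1 probe set (1371249_at for Xbp1 and 1376073_at for Sel1l), and all 10 were among the 8499 genes, of 10411 with a probe set, that were bright enough to test. The material was 65 Affymetrix arrays of total RNA from frozen tumors, 1 array per tumor. The tumors formed 11 transplant series, or lines, named 10, 13, 17, 19, 25L, 25R, 32, 33, 34, 36 and 42. Each line began as a carcinogen-induced tumor of a rat (the primary tumor) and was carried through syngeneic hosts as transplants 1 to 5. The labels give 25L and 25R as the left and right of 1 series and do not say whether both came from 1 rat. They are counted here as separate lines, so the lines may not all be independent animals. The design describes the tumors obtained as differing in invasion and metastasis. There were 11 tumors of each of transplants 1 to 4, 10 of transplant 5 (that of series 10 was not analysed here) and 11 primary tumors. The labels used here give no strain, age, carcinogen or invasive grade for single tumors, and each line is 1 primary tumor with its descendants.

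Cells that make much membrane and secreted protein, as the milk-producing mammary epithelium does, depend on the ER to fold it. When unfolded protein accumulates, the sensors Ire1, Perk and Atf6 start the unfolded protein response. Ire1 splices Xbp1 mRNA into the form that encodes an active transcription factor, which raises genes of folding, secretion and ER-associated degradation. Perk slows protein synthesis while favouring translation of Atf4, which acts on amino acid genes and on Ddit3, the gene of the factor CHOP. Hspa5 (BiP), Hsp90b1 (GRP94), Calr (calreticulin) and Pdia4 encode chaperones and a disulfide isomerase of the ER lumen, Dnajb9 (ERdj4) a partner of BiP, and Sel1l and Herpud1 parts of the complex that sends misfolded protein from the ER to the proteasome. The array does not tell spliced from unspliced Xbp1 here.

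The proximal promoters of these genes are shown because several carry the element through which the response was defined. RefSeq promoters (rat build GRCr8, 300 bases from 250 before to 50 after the start) were found for 10 of the 10 genes. The ER stress element, read as the blocks CCAAT and CCACG with 9 bases between them on either strand, was present in 4 of the 10 promoters, against 0.0657% of the 33469 promoters of the table. It lay in Xbp1, Hspa5, Hsp90b1 (in 2 places) and Calr. The capitals below mark its CCAAT and CCACG blocks, each window being printed on the strand that reads CCAAT first.
Xbp1, chr14:84604543-84604591 (+): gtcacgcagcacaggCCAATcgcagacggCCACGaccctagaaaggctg
Hspa5, chr3:38452958-38453006 (+): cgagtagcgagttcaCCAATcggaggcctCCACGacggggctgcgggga
Hsp90b1, chr7:23012436-23012484 (-): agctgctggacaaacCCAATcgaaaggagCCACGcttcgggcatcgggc
Hsp90b1, chr7:23012332-23012380 (+): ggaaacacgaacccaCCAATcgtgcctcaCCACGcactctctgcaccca
Calr, chr19:40213120-40213168 (-): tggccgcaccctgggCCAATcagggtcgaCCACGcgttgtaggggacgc

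The second form of the element, ATTGG and CCACG with 1 base between them, was found in 0.0508% of promoters and in Herpud1 alone among the 10 genes, with both blocks in capitals here.
Herpud1, chr19:10614806-10614846 (-): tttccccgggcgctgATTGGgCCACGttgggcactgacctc

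The promoters of Xbp1 and Sel1l, the genes that moved apart in the tumors, are given whole, each 5′ to 3′ on its gene's strand, with every CCAAT and CCACG block in capitals, including those of the other strand, which read ATTGG and CGTGG.
Xbp1, chr14:84604373-84604672 (+): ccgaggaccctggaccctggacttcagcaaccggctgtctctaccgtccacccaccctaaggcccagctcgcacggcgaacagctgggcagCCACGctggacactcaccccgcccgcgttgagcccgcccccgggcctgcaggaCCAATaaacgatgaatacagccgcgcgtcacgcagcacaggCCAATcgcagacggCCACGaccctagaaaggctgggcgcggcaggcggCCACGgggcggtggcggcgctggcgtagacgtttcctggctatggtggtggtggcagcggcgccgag
Sel1l, chr6:116510312-116510611 (-): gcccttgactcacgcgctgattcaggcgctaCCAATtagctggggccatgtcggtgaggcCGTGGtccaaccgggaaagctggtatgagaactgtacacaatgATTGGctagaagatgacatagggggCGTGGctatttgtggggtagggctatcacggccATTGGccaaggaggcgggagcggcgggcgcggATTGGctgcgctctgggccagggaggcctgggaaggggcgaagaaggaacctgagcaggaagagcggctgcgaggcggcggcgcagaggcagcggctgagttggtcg
Sel1l held both blocks but in neither spacing. Single blocks are common: CCAAT was in 37.5% of all promoters and in 9 of the 10 genes, and CCACG in 31.6% and in 10 of the 10. The unfolded protein response element TGACGTGG (0.595% of promoters), the cyclic AMP element TGACGTCA (1.83%) and the amino acid response element TGATGNAAT (1.09%), searched on both strands, matched 0 of the 10 in this window.

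Values are log2 intensities after every array was brought to a common median of 162, and differences are within-line log2 differences with their standard errors from limma, with p-values adjusted by Benjamini-Hochberg over the 8499 genes. A gene was called at an adjusted p under 0.05, two-sided. Array medians before scaling lay between 96.1 and 176, the lowest being that of transplant 5 of series 32. The mammary epithelial marker Epcam lay between 10.89 and 12.01 in the primary tumors of 10 lines, but at 6.00 in that of series 42, near the floor of 5.31 set for dim probe sets. In series 32 it stood at 5.58 in transplant 5 and in series 34 at 5.31, the floor. Results are therefore given with and without series 32, 34 and 42 where these lines change a call. Series 36, whose Epcam was 9.46 at transplant 5 against 11.56 in its primary tumor, stayed in both. In bulk tumor tissue, fewer cells of a type and less RNA per cell cannot be told apart.

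Across all passages Xbp1 was lower in the transplants than in the primary tumors and Sel1l was higher, while the other 8 genes were not called. In the 54 transplants Xbp1 ranged from 8.96 through a median of 10.38 to 11.19, against 9.26, 10.78 and 11.73 in the 11 primary tumors. Sel1l ranged from 6.77 through 7.58 to 8.64 in the transplants, against 6.47, 7.17 and 8.24 in the primary tumors. Both ranges overlap widely, since the lines differ in level, and the differences show within lines. Xbp1 fell by 0.46 ± 0.11 on the log2 scale, 0.725 of its primary level (limma, adjusted p = 0.00529), and was lower in 9 of 11 lines. Sel1l rose by 0.40 ± 0.10, to 1.32 times its primary level (limma, adjusted p = 0.00679), and was higher in 9 of 11 lines. Of all 8499 genes 5.06% fell and 4.44% rose, so that 1 of 10 down and 1 of 10 up is little more than the background. Lower in at least 9 lines held for 9.08% of all genes and higher for 8.64%.

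These calls rest on counting each transplant of a line. With each line reduced to 1 value, transplants minus primary, the differences were -0.46 for Xbp1 (limma, adjusted p = 0.101) and 0.39 for Sel1l (limma, adjusted p = 0.111); 1.59% of all genes were called that way and 0 of the 10 genes, with unadjusted p-values of 0.00519 and 0.00714. Without series 32, 34 and 42 both calls held, at -0.54 and 0.39 (limma, adjusted p = 0.00645 and 0.0175). Both also held with 25L and 25R averaged into 1 line.

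**Figure D1:**
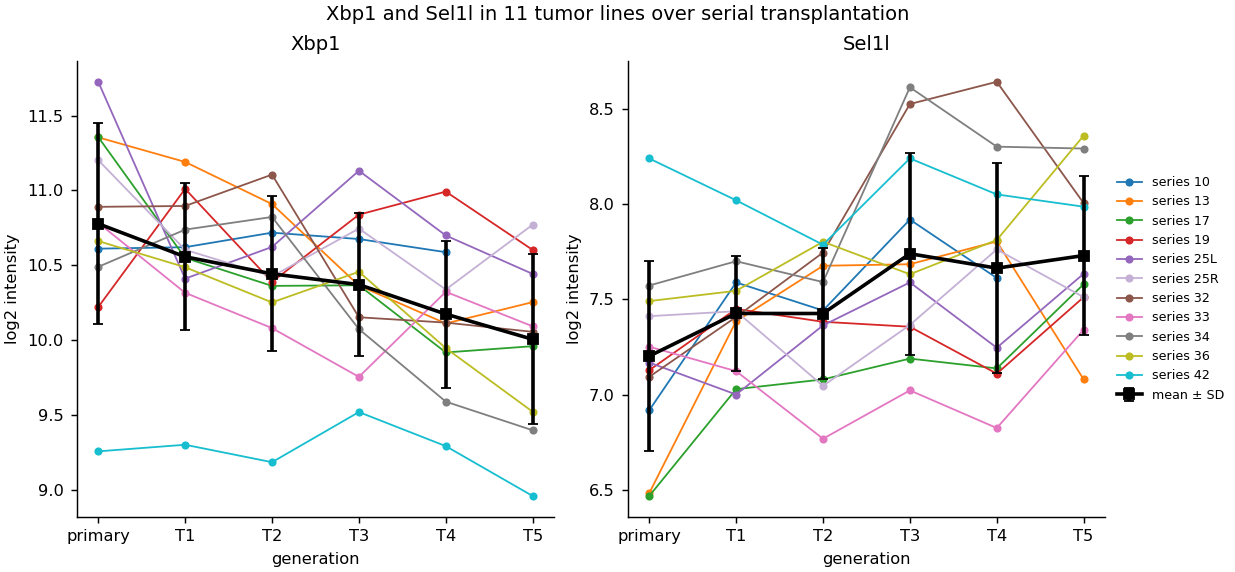
Log2 intensity of Xbp1 (left) and Sel1l (right) from the primary tumor through transplants 1 to 5 (T1 to T5), 1 coloured line per series, with the mean over lines and its SD in black. The Xbp1 mean is lower in each generation, 10.78 in primary tumors and 10.01 at transplant 5, and the Sel1l mean is 7.20 in primary tumors and 7.73 at transplant 5.

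The Xbp1 mean was lower in each later generation, and the Sel1l mean was higher in transplants 3 to 5 than in transplants 1 and 2. Xbp1 averaged 10.78 ± 0.67 in the primary tumors and 10.56 ± 0.49, 10.44 ± 0.52, 10.37 ± 0.48, 10.18 ± 0.49 and 10.01 ± 0.57 in transplants 1 to 5 (SD, n = 11, or 10 for transplant 5). Sel1l averaged 7.20 ± 0.50, then 7.43 ± 0.30, 7.43 ± 0.34, 7.74 ± 0.53, 7.66 ± 0.55 and 7.73 ± 0.42. Neighbouring generations differed by less than their SDs for either gene. A test for any difference among generations called both (limma F test, adjusted p = 0.00554 for Xbp1 and 0.0149 for Sel1l) and none of the other 8, where 4.79% of all genes were called.

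Set against the primary tumors one generation at a time, the first passage gave no call. By limma 0 of 8499 genes passed at transplant 1 (0% of genes, 584 at an unadjusted p under 0.05, and 0 with quantile normalization, array weights or 1 value per line, but 1 with no filter or without series 19, 32 or 34, and 2 without series 32, 34 and 42), with Xbp1 at -0.22 ± 0.14 and Sel1l at 0.22 ± 0.13. At transplant 2, where 1.68% of genes passed, none of the 10 did, Xbp1 being at -0.33 ± 0.14 and Sel1l at 0.22 ± 0.13. Sel1l rose at transplant 3 by 0.54 ± 0.13 (limma, adjusted p = 0.00927; 0.847% of genes rose and 2.19% fell), and Xbp1 was at -0.41 ± 0.14 there (limma, adjusted p = 0.113). At transplant 4 Xbp1 fell by 0.60 ± 0.14 and Sel1l rose by 0.46 ± 0.13 (limma, adjusted p = 0.00732 and 0.0206; 3.47% of genes fell and 2.81% rose). The Sel1l calls at transplants 3 and 4 were lost without series 32, 34 and 42 (limma, adjusted p = 0.0923 and 0.127), and that at transplant 4 also without series 13, 17 or 32 alone (limma, adjusted p = 0.0648, 0.0552 and 0.0997). With 1 value per line neither Xbp1 at transplant 4 nor Sel1l at transplants 3 and 4 was called (limma, adjusted p = 0.115, 0.165 and 0.185), and array weights gave -0.40 and 0.26 at transplant 4, also without a call (limma, adjusted p = 0.0856 and 0.187).

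At transplant 5 the differences were largest for Xbp1, and Ddit3 joined the called genes. Xbp1 ran from 8.96 through a median of 10.07 to 10.77 in the 10 transplant 5 tumors, against 9.26, 10.78 and 11.73 in the primary tumors. It fell by 0.75 ± 0.15, 0.593 of the primary level (limma, adjusted p = 0.00066), and was lower in 9 of 10 lines. Sel1l ran from 7.08 through 7.61 to 8.36, against 6.47, 7.17 and 8.24 in the primary tumors. It rose by 0.53 ± 0.13, to 1.44 times (limma, adjusted p = 0.00558), and was higher in 9 of 10 lines. The ranges of both genes still overlapped between the groups. Of all genes 6.72% fell and 7.37% rose in this comparison, and of the 10 genes 1 fell and 2 rose. With 1 value per line 1.56% of all genes were called, and Xbp1 alone of the 10 (-0.79 ± 0.16, limma, adjusted p = 0.0401), with Sel1l at 0.50 ± 0.13 (limma, adjusted p = 0.0706).

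Over transplants 1 to 5, leaving the primary tumor aside, Xbp1 fell by 0.13 ± 0.03 per passage (limma, adjusted p = 0.0241), while Sel1l changed by 0.08 ± 0.03 per passage (limma, adjusted p = 0.0704). Xbp1 was the only one of the 10 genes with a called trend in that fit, against 2.79% of genes that fell and 2.04% that rose. The Xbp1 trend was no longer called without series 32, 34 or 36 (-0.12, -0.11 and -0.12, limma, adjusted p = 0.0925, 0.167 and 0.0929), and it was -0.09 per passage without series 32, 34 and 42 (limma, adjusted p = 0.504) and with array weights (limma, adjusted p = 0.108). With 1 value per line the slopes were -0.126 for Xbp1 and 0.0855 for Sel1l (limma, adjusted p = 0.4465 for each). No gene of all those tested was called for the trend that way.

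**Figure D2:**
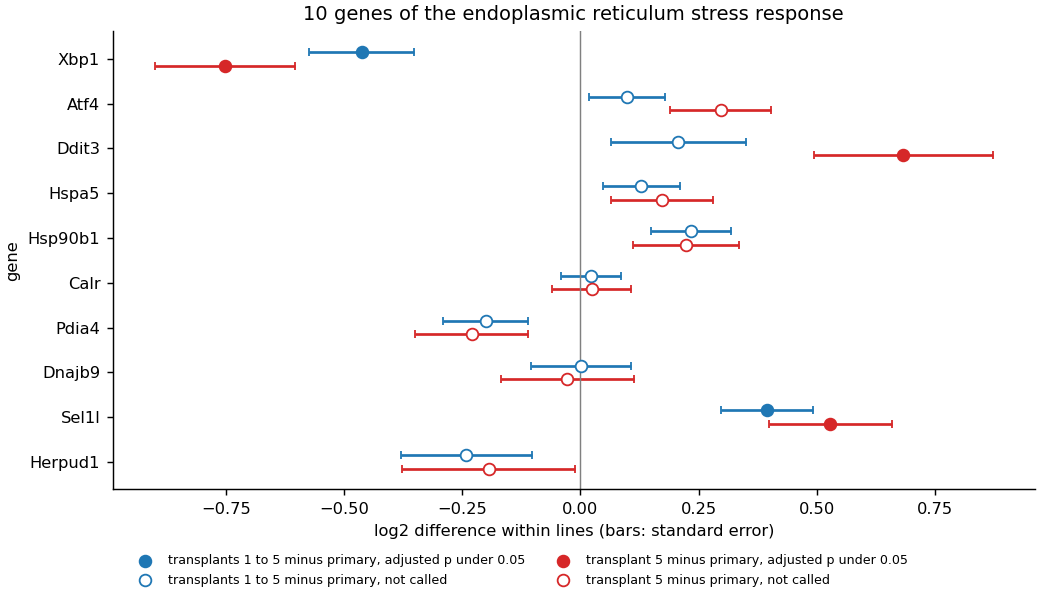
Within-line log2 difference from the primary tumor for each of the 10 genes, transplants 1 to 5 together in blue and transplant 5 in red, with standard errors as bars; filled points passed an adjusted p of 0.05 and open points did not. Xbp1 is the one gene filled on the lower side, at -0.46 and -0.75, Sel1l is filled on the upper side at 0.40 and 0.53, and Ddit3 only at transplant 5, at 0.68.

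The opposite movement of Xbp1 and Sel1l was common but was not a mirror image line by line. Over all transplants 7 of 11 lines had lower Xbp1 together with higher Sel1l, and at transplant 5 8 of 10 did. Xbp1 was lowest relative to its primary tumor in series 17 (-1.12, with Sel1l at 0.74) and series 25L (-1.06, with Sel1l at 0.20). Sel1l was highest in series 13 (1.04, with Xbp1 at -0.79) and series 32 (0.97, with Xbp1 at -0.42). Series 19 was the exception for Xbp1, which was 0.55 higher in its transplants, and in series 10 it was 0.04 higher. Sel1l was lower in the transplants of series 33 (-0.24) and series 42 (-0.22). Very small differences were also counted by sign, namely Sel1l in series 25R (0.013) and Xbp1 in series 42 (-0.006).

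The steps did not match in time. Of the 54 single passages Xbp1 went down and Sel1l up in 20, Xbp1 up and Sel1l down in 9, and both moved the same way in 25. The largest single fall of Xbp1 came with the first passage in 4 lines, and with the third passage in 3. In series 25L the first passage alone took Xbp1 to 10.41 at transplant 1, against 11.73 in the primary tumor, while Sel1l changed by -0.17 in the same step.

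In series 34 the step at the third passage was shared by both genes and by Epcam. Sel1l was at 8.61 at transplant 3, against 7.59 at transplant 2, and Xbp1 at 10.07 against 10.82. Epcam, the epithelial adhesion gene, was at 6.52 against 11.62 on the same arrays. In series 32 Sel1l was at 8.53 at transplant 3, against 7.75 at transplant 2, Xbp1 at 10.15 against 11.11 and Epcam at 9.17 against 11.56. In series 42, where Epcam was at most 6.00 throughout, Xbp1 stood lowest of all lines, between 8.96 and 9.52, and Sel1l between 7.79 and 8.24. Series 36 had Epcam at 9.46 at transplant 5, against 11.56 in its primary tumor. Relative to that tumor Xbp1 was at -1.14 and Sel1l at 0.87. Among the lines that kept Epcam the size of the movement at transplant 5 differed, and series 19 alone departed in direction. In series 13 and 17, whose Epcam stayed between 10.57 and 11.93, Xbp1 at transplant 5 was 1.10 and 1.40 log2 units below the primary tumor (-1.10 and -1.40) and Sel1l 0.60 and 1.11 above it. In series 19, whose Epcam was at least 11.11, both genes were higher at transplant 5, by 0.38 each. In series 33, with Epcam at least 11.24, Xbp1 was at -0.69 and Sel1l at 0.09. In series 25L and 25R, with Epcam at least 10.92 and 11.22, Xbp1 was at -1.28 and -0.43 and Sel1l at 0.47 and 0.10.

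Markers of cell state and cell type also differed between these groups. Of 15 tested luminal epithelial markers 4 fell and 0 rose in the transplants, where 5.06% of all genes fell and 4.44% rose, and 8 fell at transplant 5, where 6.72% fell and 7.37% rose. Their summed intensity ranged from 1093 to 20730 (median 13460) at transplant 5, against 1379 to 32210 (median 18890) in the primary tumors. Of 10 tested mesenchymal markers 5 rose in the transplants and 7 at transplant 5, with sums of 4276 to 47450 (median 18030) at transplant 5 against 2116 to 29010 (median 5834) in the primary tumors. Of 10 tested milk genes 0 were called over all transplants, where their differences ran from -1.26 to 1.05. At transplant 5 4 fell and 0 rose, with differences from -2.57 to 0.99. The milk gene sums were 1871 to 22250 (median 5255) at transplant 5 against 4921 to 26440 (median 17710) in the primary tumors. None of 15 tested fibroblast and matrix genes was called by limma in either comparison, but all 15 were higher at transplant 5, by 0.30 to 1.29 with a median of 0.71, and their sums were 8584 to 95280 (median 20360) at transplant 5 against 4632 to 56320 (median 15400) in the primary tumors. Of 12 tested macrophage genes Fcer1g rose and Cd14 fell at transplant 5, with a median of 0.37 and sums of 8485 to 28580 (median 13150) against 7944 to 20400 (median 10010). Plasma cells are rich in Xbp1, but of 16 of their markers and those of B cells 4 were on the array (Cd79b, Sdc1, Prdm1 and Cxcr5), and 0 of the 3 tested were called by limma, with sums of 999.5 to 2736 at transplant 5 and 806.6 to 2623 in the primary tumors. None of the luminal, mesenchymal, milk, fibroblast or macrophage markers lay at the floor on all arrays of either group, and 1 plasma or B cell marker did in the primary tumors. The part of these markers in the Xbp1 and Sel1l differences was not tested.

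After each line's mean was subtracted, Xbp1 correlated over the 65 arrays with Epcam at r = 0.58 and with the mesenchymal filament gene Vim at -0.69, and Sel1l at -0.51 and 0.62. Xbp1 and Sel1l correlated at -0.52. Over the 47 arrays outside series 32, 34 and 42 the values were 0.42 and -0.63 for Xbp1, -0.20 and 0.43 for Sel1l, and -0.42 between the pair. The luminal keratin gene Krt8 correlated with Xbp1 at 0.45 and with Sel1l at -0.51 over the 65 arrays, but at -0.09 and 0.08 over the 47, so for this marker the relation rests on series 32, 34 and 42. These are descriptions; arrays of 1 line descend from each other, and each value pair shares an array. Among the 8498 other genes, those most like Xbp1 by this measure were Cmtm8, Cx3cl1, Grb7, Bex1 and Traf3ip2 (r = 0.76 to 0.78), and the most opposite were Pgk1, Septin5, Mthfd2, Ripk3 and Vim (-0.73 to -0.69). Sel1l was most like Ykt6, Myo1d, Marchf5, Ptprn and Tmed2 (0.72 to 0.78), and most opposite to Tuba4a, St6gal1, Ttc9, Prlr and Ggt1 (-0.73 to -0.69).

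On the Perk side of the response, Ddit3, which encodes CHOP, was higher at transplant 5 alone. It ran from 6.39 through a median of 7.14 to 9.12 in the transplant 5 tumors, against 6.14, 6.71 and 7.73 in the primary tumors. The highest 3 values were those of series 36 (9.12), series 17 (8.88) and series 34 (8.50), above every primary tumor, and the other 7 lay within the primary range. Ddit3 rose by 0.68 ± 0.19 (limma, adjusted p = 0.0129) and was higher in 8 of 10 lines. It lost the call without series 17 (0.51, limma, adjusted p = 0.0598) and with 1 value per line (0.67, limma, adjusted p = 0.116), and with array weights it was 0.34 (limma, adjusted p = 0.268). Over all transplants it was at 0.21 ± 0.14 (limma, adjusted p = 0.374).

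Atf4, the factor upstream of Ddit3, ran from 10.02 through 10.67 to 11.40 at transplant 5, against 9.95, 10.44 and 10.90 in the primary tumors. It was higher in 9 of 10 lines by 0.30 ± 0.11 and just missed the threshold (limma, adjusted p = 0.0516). It passed without series 10 or 25R, with 25L and 25R averaged and with the filter at the median (limma, adjusted p = 0.0182, 0.025, 0.0329 and 0.0463). It was smaller with array weights, quantile normalization and no rescaling (0.15, 0.15 and 0.18, limma, adjusted p = 0.437, 0.237 and 0.238). Atf4 and Ddit3 had the highest within-line correlation of the 45 gene pairs (r = 0.74, 0.80 outside series 32, 34 and 42), and they moved the same way in 42 of the 54 single passages. In series 17 Ddit3 was at 8.88 at transplant 5 against 6.36 at transplant 4, with Atf4 at 10.67 against 9.77. In series 10 Ddit3 was at 6.15 at transplant 3 against 8.03 at transplant 2, with Atf4 at 9.68 against 11.04 and Herpud1 at 7.86 against 9.51.

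**Figure D3:**
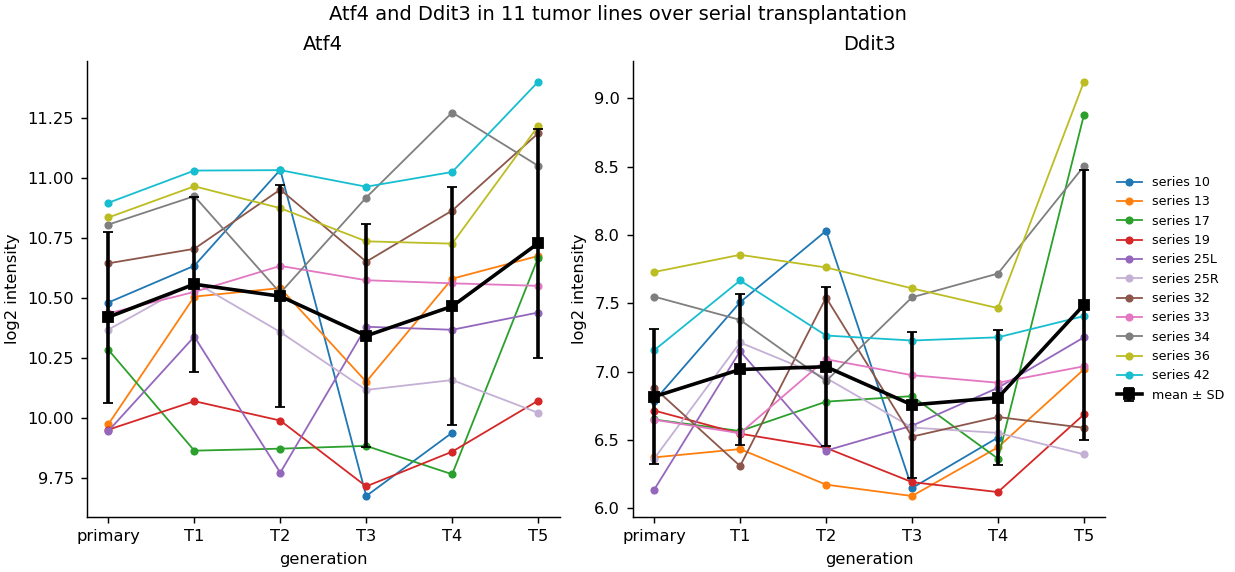
Log2 intensity of Atf4 (left) and Ddit3 (right) from the primary tumor through transplants 1 to 5 (T1 to T5), 1 coloured line per series, with the mean and SD in black. Ddit3 stays between 6.09 and 8.03 in primary tumors and transplants 1 to 4, and reaches 8.50, 8.88 and 9.12 in series 34, 17 and 36 at transplant 5.

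The chaperones of the ER lumen were not called, over all transplants or at transplant 5. Hspa5, the chaperone BiP that holds the sensors inactive, ran from 10.73 through 11.16 to 12.08 in the transplants, against 10.66, 11.04 and 11.38 in the primary tumors (0.13 ± 0.08, limma, adjusted p = 0.325). Hsp90b1, its HSP90-type partner in folding, ran from 10.03 through 10.67 to 11.38 in the transplants, against 9.93, 10.50 and 10.90 in the primary tumors. It was higher in 9 of 11 lines, by 0.23 ± 0.08 (limma, adjusted p = 0.0673), and passed only when series 36 was left out (0.27, limma, adjusted p = 0.0473), while array weights gave 0.14 (limma, adjusted p = 0.39). Calr, the lectin chaperone of glycoproteins, ran from 11.17 through 11.60 to 12.30 against 11.13, 11.62 and 11.86, a difference of 0.02 ± 0.06. Pdia4, a disulfide isomerase, ran from 7.82 through 9.56 to 10.20 against 8.59, 9.67 and 10.06. It was lower in 9 of 11 lines, by a log2 difference of -0.20 ± 0.09 (limma, adjusted p = 0.146). At transplant 5 it was at -0.23 ± 0.12, and it was called there only when arrays were not rescaled (-0.34, limma, adjusted p = 0.0432, or -0.23 relative to the shift of all genes). The ranges overlap for all 4 genes. Those of the transplants, which cover more arrays, reach higher, and for Pdia4 also lower.

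Hspa5, Hsp90b1 and Calr followed each other from tumor to tumor. Their within-line correlations over the 65 arrays were 0.72 for Hspa5 with Hsp90b1, 0.61 for Hspa5 with Calr and 0.57 for Hsp90b1 with Calr. All 3 promoters hold the ER stress element shown above, as does that of Xbp1. Xbp1 correlated with the 3 at -0.18, -0.31 and -0.30. Pdia4 and Sel1l, whose promoters showed no match to it, correlated with the 3 at 0.38, 0.41 and 0.40 and at 0.37, 0.52 and 0.46. Over the 45 pairs r ran from -0.52 to 0.74 with a median of 0.15. Outside series 32, 34 and 42 the 3 chaperone pairs stood at 0.66, 0.58 and 0.55. Series 32 held the highest transplant 5 values of all 3, with Hspa5 at 12.08, Hsp90b1 at 11.38 and Calr at 12.30, on the array with the lowest median before scaling.

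**Figure D4:**
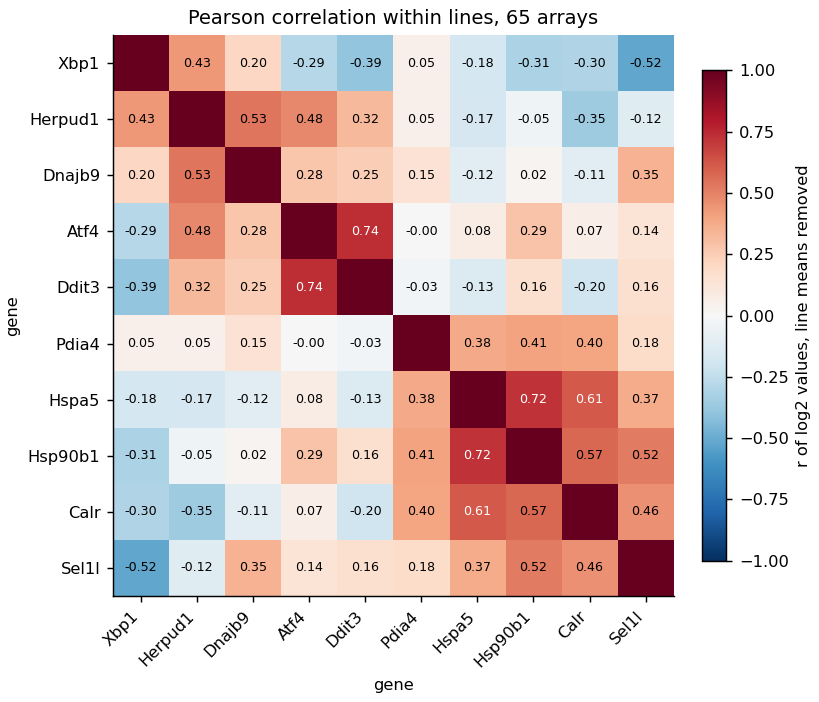
Pearson correlation between the 10 genes over 65 arrays after each line's mean was subtracted, red for positive and blue for negative r. Hspa5, Hsp90b1 and Calr form a block of 0.57 to 0.72, Atf4 and Ddit3 reach 0.74, and Xbp1 with Sel1l is the lowest pair at -0.52.

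The remaining genes of folding and degradation were also without a call. Dnajb9, the BiP co-chaperone, ran from 6.77 through 7.81 to 8.77 in the transplants, against 7.36, 7.78 and 8.62 in the primary tumors, and its difference was 0.00 ± 0.11. Herpud1, which recruits the degradation complex in the ER membrane, ran from 7.34 through 8.33 to 9.60 against 7.91, 8.54 and 9.51 (-0.24 ± 0.14, limma, adjusted p = 0.271). It was lower in 6 of 11 lines, most in series 25R (-1.31) and series 33 (-1.04), whose primary tumors held 9.48 and 9.51. Dnajb9 and Herpud1 correlated within lines at 0.53, and Herpud1 with Xbp1 at 0.43. Over the 10 genes the median difference was 0.06 for all transplants and 0.10 for transplant 5, beside 0.01 and 0.02 over all genes tested.

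**Figure D5:**
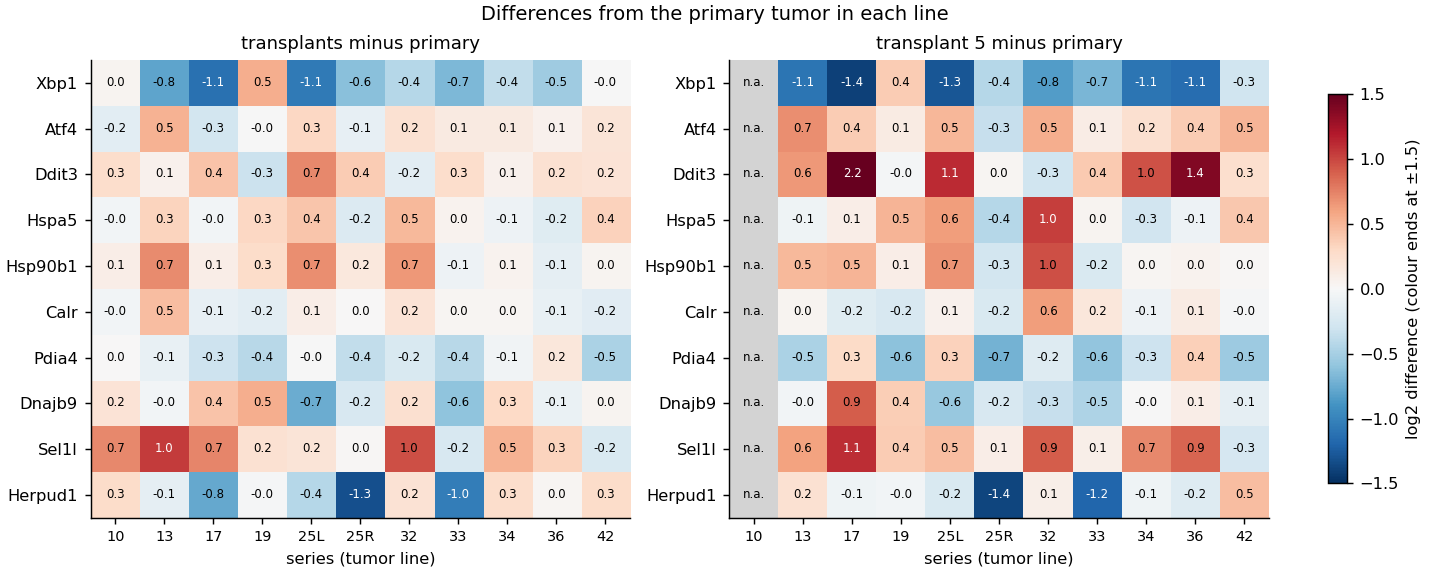
Log2 difference from the primary tumor in each line for the mean of the transplants (left) and for transplant 5 (right), red higher and blue lower, with the colour ending at ±1.5; n.a. marks transplant 5 of series 10, which was not analysed here. The Xbp1 row is mostly blue and the Sel1l row mostly red, while Ddit3 at transplant 5 runs from -0.29 in series 32 to 2.23 in series 17.

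Line took a larger share of the variance than generation did for each of the 10 genes, but it also has more degrees of freedom, which alone would give line 15.6% and generation 7.81%. A test among lines called 9 of the 10 genes, all but Herpud1 (limma F test, adjusted p = 0.0684), where 83.5% of all genes were called. Line accounted for 74.5% of the sum of squares of Pdia4, 69.6% of Atf4, 54.7% of Xbp1 and 52.2% of Sel1l, against a median of 43.0% over all tested genes. Generation accounted for 18.1% of Xbp1, 17.3% of Sel1l and 14.5% of Ddit3, and for 1.39% to 10.7% of the other 7, against a median of 6.06%. Series 42 was the line that stood lowest for Xbp1 (mean 9.25 ± 0.18, SD, n = 6) and for Pdia4 (8.20 ± 0.30), and highest for Atf4 (11.06 ± 0.18) and Sel1l (8.05 ± 0.17). Next in order came series 34 for Xbp1 (10.19 ± 0.60) and series 19 for Pdia4 (9.18 ± 0.24), both apart from series 42 by more than their SDs. For Atf4 and Sel1l the next line, series 34 (10.92 ± 0.25 and 8.01 ± 0.45), lay within the spread of series 42.

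Trends over transplants 1 to 5 differed among lines for 2 of the 10 genes, Xbp1 and Hsp90b1 (limma F test, adjusted p = 0.0219 and 0.00806), where 24.3% of all genes were called. The Xbp1 slope ran from -0.39 per passage in series 34, with -0.27 in series 13 and series 32, to 0.02 in series 25R. The Hsp90b1 slope ran from -0.25 per passage in series 25R to 0.22 in series 32. The Xbp1 difference in slope was lost without series 34 (limma F test, adjusted p = 0.114), and that of Hsp90b1 without series 25R (limma F test, adjusted p = 0.0915) and under quantile normalization (limma F test, adjusted p = 0.0721).

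Around these genes, most called members of the wider secretory and stress pathways rose. Of 176 other listed genes of folding, degradation, translocation, transport and stress signalling, 157 were on the array and 154 tested. In the transplants 14 rose and 2 fell, 10.4% of those tested, with a median of 0.09, and at transplant 5 24 rose and 4 fell, 18.2%, with a median of 0.12. Over all genes 4.44% rose and 5.06% fell in the first comparison, and 7.37% rose and 6.72% fell in the second. With 1 value per line 1 was called in each, Cbs over all transplants and Mthfd2 at transplant 5. The 16 and 28 calls became 8 and 14 without rescaling the arrays, where 659 and 1398 of all 8500 genes were called. They became 2 and 4 under array weighting, where 331 and 307 of all 8499 genes were called. In both settings the share called was lower among these pathway genes than among all genes. Leaving out series 32, 34 and 42 gave 11 and 7. Single lines left out gave 7 (without series 13) to 18 calls over all transplants and 14 (without series 32) to 31 at transplant 5.

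Over all transplants 4.44% of all genes rose and 5.06% fell. Among 31 tested chaperone and folding genes 3 rose over all transplants and 0 fell: Sdf2l1 (0.30 ± 0.08), a partner of Hsp40 proteins in the lumen, Fkbp2 (0.27 ± 0.09) and Ppib (0.20 ± 0.06), both prolyl isomerases. Among 29 tested degradation genes 3 rose and 0 fell, Sel1l and its partners in the membrane, Selenos (0.32 ± 0.09) and Derl1 (0.31 ± 0.08). At transplant 5 Ube2j1, the ubiquitin-conjugating enzyme of that complex, rose by 0.48 ± 0.14 and was higher in 10 of 10 lines. At that stage, where 7.37% of all genes rose and 6.72% fell, 6 of the 29 rose and 2 fell. Sel1l, Derl1, Selenos, Derl2 and Ufd1 were the others that rose. Of the 2, Erlec1, a lectin that binds glycans of misfolded proteins, fell by 0.44 ± 0.13 and was lower in 10 of 10 lines. Rnf5, a ubiquitin ligase of the ER membrane, fell by 0.29 ± 0.10.

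Where 4.44% of all genes rose and 5.06% fell, 3 of 27 tested translocation and glycosylation genes rose over all transplants. They were Ssr1 of the translocon-associated complex (0.27 ± 0.08), Srp9 of the signal recognition particle (0.22 ± 0.07) and Spcs2 of the signal peptidase (0.21 ± 0.07). Of 27 tested transport genes 2 rose, Sec31a of the COPII coat (0.32 ± 0.08) and Arcn1 of the COPI coat (0.16 ± 0.05), and 0 fell. Among the 20 tested sensors and factors 0 rose and 2 fell, Xbp1 and Mbtps1 (-0.24 ± 0.08), the protease that cleaves Atf6.

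Among 33 tested genes of the Atf4 and CHOP programme 4 rose and 1 fell over all transplants, where 4.44% of all genes rose and 5.06% fell. Iars1 (0.34 ± 0.10) and Nars1 (0.27 ± 0.07) load transfer RNAs with isoleucine and asparagine, and Shmt2 (0.32 ± 0.08) and Mthfd2 (0.29 ± 0.08) work in mitochondrial one-carbon metabolism. Cbs, the transsulfuration enzyme, fell by 0.87 ± 0.20 and was lower in 10 of 11 lines. At transplant 5 8 rose, among them Ddit3, Mthfd2 (0.50 ± 0.11), Gars1 (0.38 ± 0.10), the glutamine carrier Slc1a5 (0.42 ± 0.14) and the factor Atf5 (0.43 ± 0.15), and Cbs alone fell. Of all genes 7.37% rose and 6.72% fell there. With 1 value per line only Cbs of these called genes passed over all transplants, and only Mthfd2 at transplant 5.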

How the data were processed

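The deposited values are intensity values per probe set, 15923 of them on 65 arrays; the authors' summarisation, normalization and genome build are not given in the sources used here, and nothing in the table says whether it was scaled. After removal of 57 control probe sets, each array was scaled to a median of 162, the pooled 10th percentile (39.8) served as a floor, and values were converted to log2. The platform annotation gave 1 symbol for 12783 probe sets, several for 312 and none for 2771. The brightest probe set stood for each of 10411 genes. Genes in the lowest 25% of mean log2 were left out, which left 8499. limma 3.58.1 (R 4.3.3) fitted generation with series as a replicate block over all 65 arrays. The series text ties each transplant to its primary tumor. Arrays of a line deviated together (mean r = 0.376 within lines, -0.0373 between), and 50 of 65 had their nearest array in their own line. The code was tested on simulated data. The named genes are the 10, the called genes of the pathway and marker lists and 5 nearest and 5 most opposite genes for Xbp1 and Sel1l. The members and lists were chosen with earlier results of these data known. Alternatives covered scaling, floor, filter, probe sets, block, array weights, the 3′ to 5′ ratio of Gapdh (0.957 to 1.22 at transplant 5, 0.884 to 1.30 in primary tumors) and each line left out. No counting depth applies to arrays; their number limits the precision.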

Additional observations from a re-analysis of the deposited data

Results flagged for a closer look

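Single arrays stood apart from the other generations of their line or from the other lines at transplant 5 in 11 of 120 sets examined (9.17%), by Dixon's test at the 95% level; chance flags about 1 in 20 sets. Of the 120 sets 110 were the generations of a line and 10 were the lines at transplant 5. Of the 11 flags 9 fell on transplant 5 arrays, 2 of them from the 10 sets that hold no other generation. Some arrays were flagged for more than 1 gene. Transplant 5 of series 17 was high for Ddit3 (8.88, the other 5 tumors of the line between 6.36 and 6.82), for Hsp90b1 (10.85, the others between 10.24 and 10.40) and for Dnajb9 (8.77, the other 9 lines at transplant 5 between 7.24 and 8.04). Transplant 5 of series 36 was high for Ddit3 (9.12, the others of the line between 7.46 and 7.85) and for Sel1l (8.36, the others between 7.49 and 7.81). Atf4 was high at transplant 5 of series 42 (11.40, the others of the line between 10.90 and 11.03), and Hspa5 at transplant 5 of series 32 (12.08, the other 9 lines between 10.84 and 11.44). The array of transplant 5 of series 32 had the lowest median before scaling (96.1), so scaling raised its values the most. Whether Hspa5 stood apart there without scaling was not tested. Calr was low at transplant 5 of series 25R (11.31, the others of the line between 11.54 and 11.67), and so was Pdia4 at transplant 5 of series 13 (9.23, the others between 9.63 and 9.77). Outside transplant 5, Dnajb9 was high at transplant 1 of series 19 (8.75, the others between 7.36 and 7.82) and Herpud1 in the primary tumor of series 33 (9.51, the others between 8.18 and 8.63).

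The trend over transplants 1 to 5 differed among lines for Xbp1 (limma F test, adjusted p = 0.0219) and for Hsp90b1 (limma F test, adjusted p = 0.00806), 2 of 10 genes where 24.3% of all genes were called. The Xbp1 call was lost without series 34 (limma F test, adjusted p = 0.114), and that of Hsp90b1 without series 25R (limma F test, adjusted p = 0.0915) and under quantile normalization (limma F test, adjusted p = 0.0721).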

How the results depend on the processing

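Xbp1 and Sel1l kept their directions under all 24 alternatives of the transplant and transplant 5 comparisons, and both calls held when any 1 line was left out: Xbp1 lay between -0.57 and -0.40 over all transplants and -0.87 and -0.69 at transplant 5, Sel1l between 0.33 and 0.46 and between 0.47 and 0.61. Without the replicate block (no pairing of tumors by line) the values were nearly the same, -0.47 and -0.77 for Xbp1 and 0.40 and 0.53 for Sel1l, but none was called (limma, adjusted p = 0.211, 0.0934, 0.205 and 0.167); 0 of the 10 genes and 85, 37 and 0 of all genes were called over all transplants, at transplant 5 and for the trend. With 1 value per line 0, 1 and 0 of the 10 and 135, 133 and 0 of all genes were called, with Xbp1 at -0.46 and Sel1l at 0.39 over all transplants and Sel1l at 0.50 at transplant 5. With array weights 0 of the 10 were called over all transplants and for the trend (Xbp1 -0.35, Sel1l 0.28), and 331, 307 and 4 of all genes. The Gapdh covariate left 407 genes over all transplants, no filter left 265 for the trend, and quantile normalization left 1 of the 10 for the difference in trend. Leaving out single lines gave 488 (without series 17; 495 without 25R) to 824 genes over all transplants, 764 (without series 17; 778 without 34) to 1269 at transplant 5 and 3 (without series 36) to 812 (without series 25L) for the trend, with 4, 7, 261 and 686 without series 34, 32, 13 and 33, 0 to 2 of the 10 for the trend and 1 to 2 for the difference in trend. Without series 32, 34 and 42, an alternative chosen after seeing the data, 535 genes were called at transplant 5, and 0 genes and 0 of the 10 for the trend. The other pathway genes called, 16 and 28 of 154, were 0 and 0 without the block. With the Gapdh covariate they were 6 and 20, where 407 and 864 of all genes were called. Without series 32, 34 and 42 they were 7 at transplant 5, where 535 of all genes were called. Genes called at transplants 2, 3 and 4, 143, 258 and 534, were 0, 15 and 21 without the block and 8, 0 and 89 with 1 value per line; at transplant 2 they were 242 with quantile normalization, 93 with no rescaling and 24 with the Gapdh covariate. Without rescaling the median of all genes at transplant 5 moved by -0.11, and the share of calls that rose was 28.7% against 46.7% over all transplants, 16.7% against 52.3% at transplant 5 and 14.4% against 42.2% for the trend (31.3% under quantile normalization); relative to that shift Xbp1 stood at -0.76 and Sel1l at 0.53. Calr changed sign over all transplants with no rescaling (-0.014), quantile normalization (-0.033) and single lines left out (-0.021 to 0.042), and at transplant 5 with no rescaling (-0.091), quantile normalization (-0.090), array weights (-0.0096), without series 32, 34 and 42 (-0.043) and single lines left out (-0.042 to 0.051). Dnajb9 changed sign over all transplants with no rescaling (-0.035), array weights (-0.048), without series 32, 34 and 42 (-0.068) and single lines left out (-0.052 to 0.076), and at transplant 5 with 25L and 25R averaged (0.0093), without series 32, 34 and 42 (0.041) and single lines left out (-0.13 to 0.025). Where lines are left out fewer arrays are tested, and with 1 value per line each line counts once. Otherwise the cause was not tested.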

Other observations

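At transplant 5, where 7.37% of all genes rose and 6.72% fell, calls among the transport, translocation and folding lists were as follows. Of 27 tested transport genes 4 rose and 0 fell: Sec31a (0.44 ± 0.11), Kdelr2, the receptor that returns lumen proteins to the ER (0.33 ± 0.12), Sec13 (0.29 ± 0.10) and Tmed2 (0.27 ± 0.08). Of 27 translocation and glycosylation genes 3 rose, Ssr1 (0.46 ± 0.10), Spcs2 (0.26 ± 0.09) and Rpn2 of the oligosaccharyltransferase (0.24 ± 0.07). The folding genes Fkbp14 (0.39 ± 0.13) and Erp29 (0.32 ± 0.11) rose as well. All these calls are limma's over all genes, and none of these genes passed with 1 value per line.

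Of 7 tested genes tied to hormone response 4 fell and 0 rose over all transplants, where 5.06% of all genes fell and 4.44% rose. At transplant 5 3 fell and 0 rose, where 6.72% fell and 7.37% rose, with differences from -2.28 to 0.18. The prolactin receptor Prlr fell by 1.57 ± 0.34 over all transplants and by 2.28 ± 0.45 at transplant 5, and was lower in 9 of the 10 lines there. With 1 value per line it was called over all transplants but not at transplant 5 (limma, adjusted p = 0.039 and 0.0585). The milk protein gene Csn3 fell by 2.49 ± 0.54 at transplant 5 and was lower in 10 of 10 lines. It was among the 4 of 10 tested milk genes that fell there, and differences over the 10 ran from -2.57 to 0.99. Csn3 correlated within lines with Xbp1 at r = 0.54 over the 65 arrays and at 0.42 over the 47 outside series 32, 34 and 42, and with Sel1l at -0.38 and -0.30.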
